A study of Rattus norvegicus with 8 samples.

Results

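The genes described here are 8 that make and load the peptides shown by MHC class I molecules: the 3 inducible catalytic subunits of the immunoproteasome (Psmb8, Psmb9 and Psmb10), both chains of the peptide transporter (Tap1 and Tap2), the loading factor tapasin (Tapbp), the class I light chain beta-2-microglobulin (B2m) and the interferon-induced transcription factor Irf1. They were taken by name, through the RefSeq accession of the array probe. The set, like all gene lists below, was chosen with earlier results of these data known. Counts set against the share of all probes are therefore descriptions. All 8 are on the array, as 9 probes, and all 8 were tested among 12599 named genes. Whole skin of male rats of the outbred Sprague-Dawley strain was compared between animals given streptozotocin (STZ), which destroys pancreatic beta cells and so causes diabetes, and sham-treated animals. STZ rats had received an abdominal-cavity injection of 60 mg/kg STZ at an age of 4 weeks, sham rats had received sodium citrate solution, and skin was taken 4 weeks later, at 8 weeks. No genetic alteration is given for either group, and blood glucose of these animals was not analysed here. A cutaneous wound is mentioned in the labels, which do not say whether it came before the skin was taken. Each group has 4 samples, but replicates 1 and 3, and replicates 2 and 4, of a group are 2 scans of the same array position, so each comparison below sets 2 STZ arrays against 2 sham arrays (n = 2 per group). Array A of a group holds replicates 1 and 3 and array B replicates 2 and 4. The main comparison does not pair arrays across groups by letter. The sources used here do not say whether an array holds RNA of 1 rat or a pool.

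The proteasome is the barrel-shaped protease that breaks down tagged proteins in the cytosol and nucleus. Interferon gamma and related signals make cells replace its 3 constitutive catalytic subunits, Psmb5, Psmb6 and Psmb7, with Psmb8, Psmb9 and Psmb10, which favours peptide ends that fit class I molecules. The Tap1 and Tap2 transporter moves these peptides into the endoplasmic reticulum, where tapasin holds class I heavy chains paired with beta-2-microglobulin until a peptide binds, and Irf1 is among the factors that switch the whole set on. In skin these genes are expressed by resident keratinocytes and fibroblasts as well as by leukocytes.

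The promoters of the 8 genes are shown because most of them carry the letters of an interferon response element, which the other proteasome genes mostly lack. RefSeq windows of the rat build GRCr8, from 250 bases before the transcription start to 50 bases from the start on, were searched on both strands. The interferon-stimulated response element core, GAAA followed by any 2 bases and again GAAA, was found in 6 of the 8 windows (Psmb8, Psmb10, Tap1, Tap2, Tapbp and B2m), against 3.92% of all 33469 windows. It was found in 0 of 3 constitutive catalytic subunits, 2 of 10 other 20S core subunits, 1 of 14 19S subunits and 2 of 24 class I heavy chains. The gamma-activated site TTCNNNGAA was found in Irf1 and Psmb8, 2 of 8, against 8.87% of all windows. An NF-kappaB consensus was found in Tap1, Tapbp, B2m and Irf1, 4 of 8, against 4.18% of all windows and 10 of 24 class I heavy chains. A match is a description of the letters and not a measured binding site. The 4 whole windows below, of Tap1 at chr20:4668494-4668793 on the minus strand, Psmb10 at chr19:50743243-50743542 on the minus strand, B2m at chr3:129549080-129549379 on the plus strand and Irf1 at chr10:38417685-38417984 on the plus strand, are each 300 bases, 5′ to 3′. Capitals mark the interferon-stimulated response element core, read on either strand, and in Irf1 the gamma-activated site.
Tap1: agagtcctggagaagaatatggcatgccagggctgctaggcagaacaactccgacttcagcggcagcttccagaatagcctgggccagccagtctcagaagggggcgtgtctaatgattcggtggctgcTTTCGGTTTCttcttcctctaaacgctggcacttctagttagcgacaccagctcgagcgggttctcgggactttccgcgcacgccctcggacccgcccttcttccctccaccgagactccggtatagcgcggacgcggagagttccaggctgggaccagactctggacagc
Psmb10: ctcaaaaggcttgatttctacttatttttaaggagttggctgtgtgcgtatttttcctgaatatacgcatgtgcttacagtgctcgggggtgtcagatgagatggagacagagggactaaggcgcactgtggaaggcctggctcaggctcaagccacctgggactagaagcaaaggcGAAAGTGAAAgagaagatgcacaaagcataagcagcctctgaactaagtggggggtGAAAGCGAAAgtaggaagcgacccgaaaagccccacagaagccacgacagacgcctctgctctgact
B2m: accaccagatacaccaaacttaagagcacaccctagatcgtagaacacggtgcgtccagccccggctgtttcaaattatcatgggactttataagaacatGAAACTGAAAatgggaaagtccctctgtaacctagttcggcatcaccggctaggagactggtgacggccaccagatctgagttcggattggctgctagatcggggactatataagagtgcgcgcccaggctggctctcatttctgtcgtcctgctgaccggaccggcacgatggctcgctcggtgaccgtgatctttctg
Irf1: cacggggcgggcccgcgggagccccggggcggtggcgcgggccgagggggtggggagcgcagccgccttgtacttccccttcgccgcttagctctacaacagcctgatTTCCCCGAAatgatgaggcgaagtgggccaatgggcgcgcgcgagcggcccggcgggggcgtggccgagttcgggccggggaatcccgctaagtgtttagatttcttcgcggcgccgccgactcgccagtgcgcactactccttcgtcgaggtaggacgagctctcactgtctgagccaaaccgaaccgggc

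The Tap1 core lies on the opposite strand and begins 121 bases before the start, followed by an NF-kappaB match 55 bases before it. Psmb10 has 2 cores, at 73 and 17 bases before the start. In B2m the core begins 150 bases and the NF-kappaB match 137 bases before the start. In Irf1 the gamma-activated site begins 142 bases and an NF-kappaB match 65 bases before it. The Psmb9 window holds none of the 3 motifs. It overlaps that of Tap1 by 44 bases on the opposite strand, so these neighbouring genes are read in opposite directions from a shared stretch. Stretches of 30 bases show the core of the other 3 genes, at chr20:4657016-4657045 for Psmb8, chr20:4652318-4652347 for Tap2 and chr20:4967881-4967910 for Tapbp, all on the minus strand. Capitals mark the core, and Tapbp has 2 copies that overlap.
Psmb8: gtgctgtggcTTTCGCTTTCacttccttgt
Tap2: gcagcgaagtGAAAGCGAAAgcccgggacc
Tapbp: tttgaggGAAAATGAAAGTGAAAggaaaca

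Values are log2 intensities over the 75th percentile of each array, so a value of 0 is an intensity equal to that percentile, and levels of different probes are not compared. The 75th percentile of intensity was 1481 and 1496 in STZ replicates 1 and 3, 606 and 624 in STZ replicates 2 and 4, and 1138 to 1336 in the sham samples. Of 24684 probes, 20267 to 22889 were well above background per sample, no spot was saturated, and 21511 probes were tested. Scans of the same array position differed with an SD of 0.098 to 0.14 over these probes, against 0.894 to 1.17 between the arrays of a group. On the log2 scale the median of these probes was higher in STZ by 0.23 (−0.037 after quantile normalization), and every change below is STZ minus sham relative to that median, with its SE and 95% interval. The p of limma's moderated test is for the change before the median was taken off, so an interval that includes 0 can stand beside an unadjusted p below 0.05. Skin markers were present in every sample: the basal keratin Krt14 had values of 7.27 and 7.35 in STZ and 7.15 and 5.54 in sham.

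All 8 genes lay above the median probe in STZ skin, with changes of 0.13 to 1.22, and 7 of the 8 had both STZ arrays above both sham arrays. Over all tested probes 26.9% (5777) had both STZ arrays above both sham arrays, and 17.9% (3840) had both below. Like the p, this comparison uses values before the median was taken off. With array median centring 4499 probes had both STZ arrays above and 4886 both below, and under quantile normalization 4141 and 4939. The members were not counted in this way under those settings. No member passed the test at an adjusted p below 0.05 (limma, Benjamini-Hochberg over all 21511 probes), and neither did any other probe, 0% in either direction. At an unadjusted p below 0.05, 3 of 8 members were higher (Irf1, B2m and Psmb9), against 7.32% of all probes (1575), and 0 of 8 were lower, against 3.52% (758). Under quantile normalization these counts over all probes were 1231 higher and 1151 lower, with normexp before it 1143 and 1356. Without sham array A 0 of 8 members had an unadjusted p below 0.05 in the higher direction, against 4.78% of all probes in that fit, and without sham array B 0, against 3.14%. Without STZ array A the count was 2 of 8, the same share as the 25% of all probes, and without STZ array B it was 1, against 5.79%. The members' median change was 0.91 (0.52 without sham array B), and that of all tested named genes was −0.11. All 9 probes were well above background in all 8 samples, with intensities of 492.3 to 101198, and the scans of an array differed by at most 0.054 for any of them. Precision here is set by how few arrays there are.

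**Figure D1:**
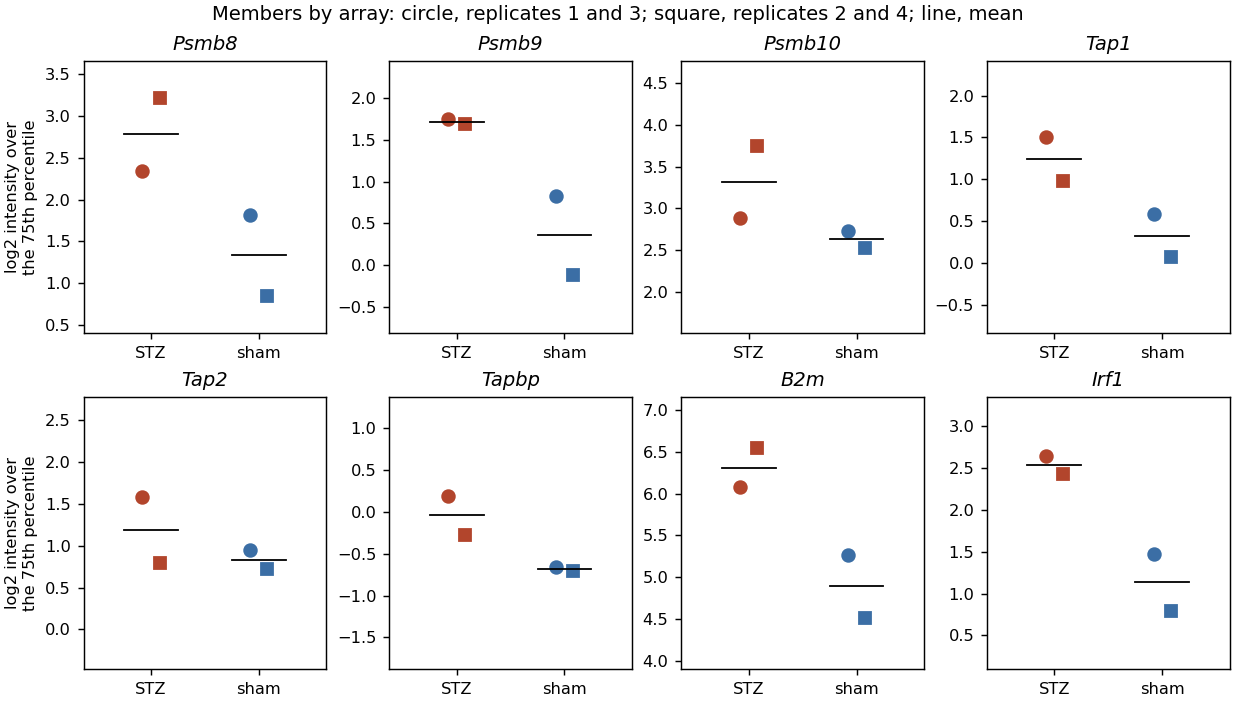
Log2 intensity over the 75th percentile of the array for each of the 8 genes, STZ left of sham, with 1 point per array (circle, array A with replicates 1 and 3, square, array B with replicates 2 and 4) and a line at the group mean. Every panel spans the same height on its own range. The STZ points lie above the sham points in every panel except that of Tap2, where STZ array B at 0.79 is below sham array A at 0.95.

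Among the immunoproteasome subunits, Psmb8, which carries the chymotrypsin-like activity in place of Psmb5, had values of 2.35 on STZ array A and 3.21 on STZ array B, against 1.81 and 0.85 on sham arrays A and B. Both STZ arrays were above both sham arrays, and each group spread widely, with means of 2.78 ± 0.61 in STZ and 1.33 ± 0.68 in sham (SD, n = 2 each). Its change was 1.22 ± 0.58 (SE, 95% interval −0.27 to 2.71), a 2.33-fold difference, and it did not pass (unadjusted p of 0.0548 and adjusted p of 0.473 by limma). Psmb9, which replaces Psmb6, had values of 1.75 and 1.69 in STZ and 0.83 and −0.11 in sham. The STZ arrays were close together at 1.72 ± 0.042, and the sham arrays were apart at 0.36 ± 0.66 (SD, n = 2 each). Its change was 1.13 ± 0.51 (−0.18 to 2.44), 2.19-fold, with an unadjusted p of 0.0443 and an adjusted p of 0.445 by limma. Psmb10, which carries the trypsin-like activity in place of Psmb7, had values of 2.89 and 3.75 in STZ and 2.74 and 2.53 in sham. The lower STZ array lay only just above the higher sham array, and the change of 0.46 ± 0.50 (−0.82 to 1.74) did not pass (unadjusted p of 0.226 and adjusted p of 0.639 by limma).

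Genes of the standard proteasome lay mostly below the median probe. The constitutive catalytic subunits had changes of −0.41 (Psmb5), −0.52 (Psmb7) and −0.66 (Psmb6), with adjusted p of 0.728 to 0.885 by limma. Psmb5 had values of 5.03 and 5.31 in STZ and 5.47 and 5.24 in sham, so its groups overlapped. Psmb6 had values of 3.34 and 2.86 in STZ and 3.49 and 3.58 in sham, and Psmb7 4.00 and 3.77 in STZ and 4.18 and 4.18 in sham. Both lay lower on the STZ arrays than on either sham array, as did 17.9% of all tested probes. The other 20S core subunits, which form the barrel, were split, with 2 of 11 above the median probe, 9 below and a median of −0.24, and 0 of 11 passed. That median became 0.064 under quantile normalization. The 4 with the smallest p were Psmb3 (0.56), Psma3 (−0.59), Psma6 (0.067) and Psma5 (−0.027).

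The 19S subunits, which form the cap that unfolds tagged proteins, were all below the median probe, 17 of 17, with a median of −0.53. Of these, 14 had both STZ arrays below both sham arrays, against 17.9% of all probes, and 0 of 17 passed the test. The 4 with the smallest p were Psmd8 (−0.84), Adrm1 (−0.82), Psmd7 (−0.69) and Psmd3 (−0.73). The median stayed below 0 under every setting tried, between −0.75 and −0.21, and was −0.30 without STZ array B. Among activators and assembly factors, 3 of 6 were above and 3 below the median probe, and 0 passed. The interferon-inducible activator subunits Psme1 and Psme2 had changes of 0.62 ± 0.57 and 0.028 ± 0.51, and the nuclear activator Psme3 0.22 ± 0.52. Pomp, the chaperone that also assembles immunoproteasomes, had −0.28, Psmg4 −0.14 and Psmg2 −0.23.

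**Figure D2:**
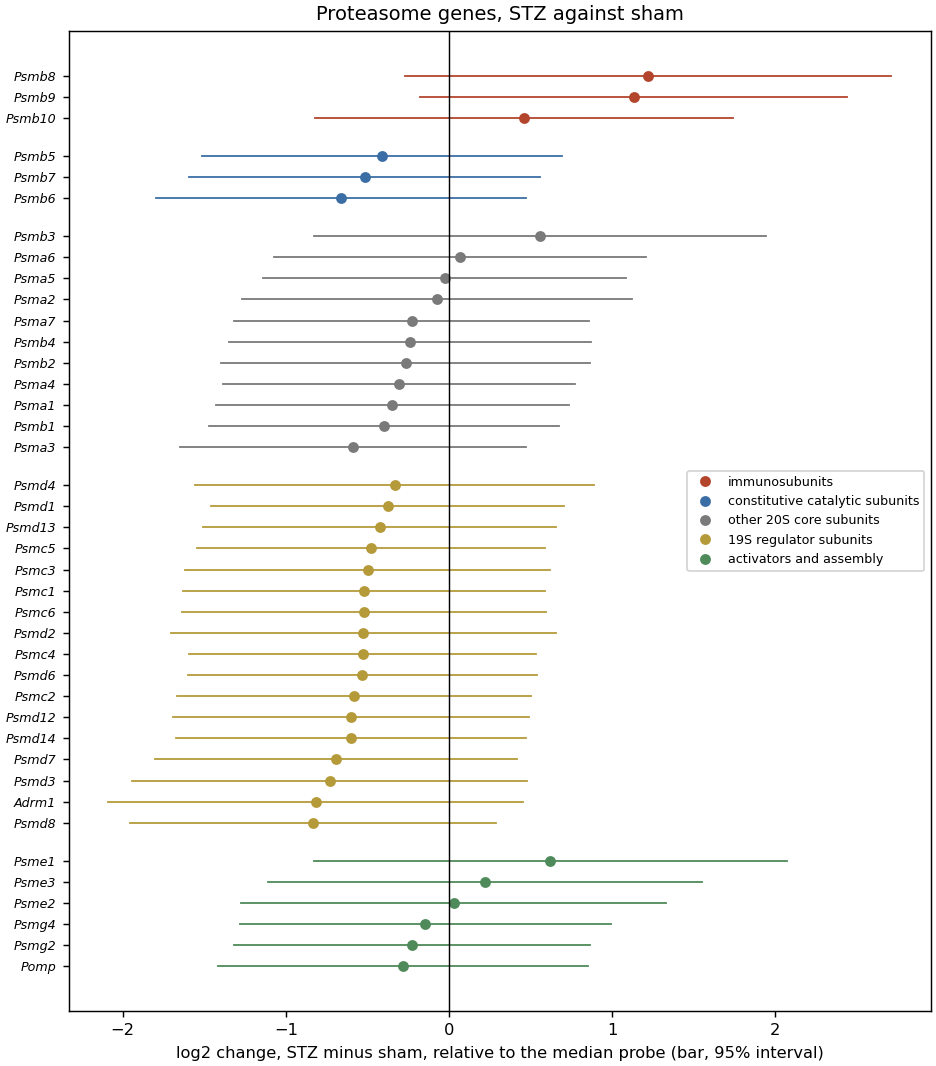
Log2 change of each tested proteasome gene, STZ minus sham, relative to the median probe (point) with its 95% interval (bar), grouped by role. The 3 immunosubunits lie at 0.46 to 1.22, right of 0, the constitutive catalytic subunits at −0.66 to −0.41 and all 17 subunits of the 19S regulator left of 0, and every interval includes 0.

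Each immunosubunit was next set against the constitutive subunit whose place it takes, as the difference of their log2 values within an array. That difference as such depends on the 2 probes and has no meaning as a ratio of transcripts, but its change between the groups is free of the scaling of the array. Psmb8 minus Psmb5 was −2.68 and −2.10 on the STZ arrays and −3.66 and −4.39 on the sham arrays, a shift of 1.63, or 3.10-fold. Psmb9 minus Psmb6 was −1.60 and −1.17 in STZ and −2.66 and −3.70 in sham, a shift of 1.79, or 3.46-fold. Psmb10 minus Psmb7 was −1.11 and −0.026 in STZ and −1.44 and −1.65 in sham, a shift of 0.98, or 1.97-fold. In each of the 3 pairs both STZ arrays lay above both sham arrays, and how often other pairs of genes do so was not computed. An exact two-sided permutation test gave p = 0.333 for each pair and an adjusted p of 0.333 over the 3, and 0.333 is the smallest value that 2 arrays against 2 allow. Leaving out any single array left shifts of 1.27 to 2.0, 1.28 to 2.31 and 0.43 to 1.52 for the pairs of Psmb8, Psmb9 and Psmb10. For Psmb10 both ends came from the STZ arrays, with 1.52 without array A and 0.43 without array B.

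**Figure D3:**
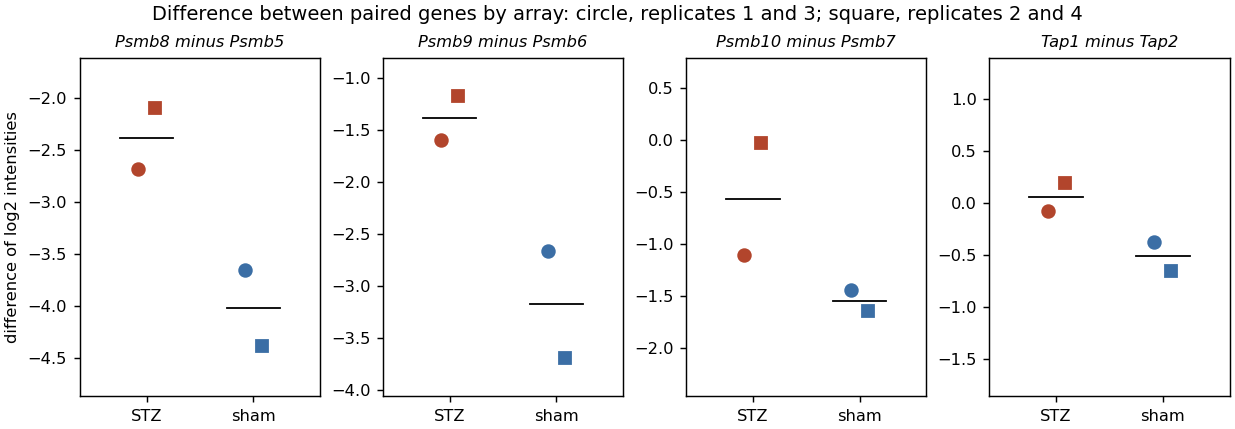
Difference of log2 intensities between 2 genes on the same array, STZ left of sham, for each immunosubunit minus the constitutive subunit it replaces and for Tap1 minus Tap2, with 1 point per array and a line at the group mean. Both STZ points lie above both sham points in each panel, and the group means differ by 1.63, 1.79, 0.98 and 0.57.

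The transporter chains differed in how clearly the groups were apart. Tap1 had values of 1.51 and 0.98 in STZ and 0.58 and 0.068 in sham, with means of 1.25 ± 0.37 and 0.32 ± 0.36 (SD, n = 2 each). Both STZ arrays were above both sham arrays, and the change of 0.69 ± 0.47 (−0.52 to 1.91), 1.62-fold, did not pass (unadjusted p of 0.109 and adjusted p of 0.565 by limma). Without STZ array A it was 0.28, without sham array B 0.41 and without STZ array B 1.15. Tap2 had values of 1.59 and 0.79 in STZ and 0.95 and 0.72 in sham, and its groups overlapped. Its change was 0.13 ± 0.49 (−1.13 to 1.38, adjusted p = 0.793 by limma), the smallest of the 8, and became −0.42 without STZ array A, −0.014 without sham array B and −0.013 without the filter on dim probes. Tap1 minus Tap2 was −0.081 and 0.19 on the STZ arrays and −0.37 and −0.65 on the sham arrays, a shift of 0.57, with an exact permutation p of 0.333.

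Tapbp, the bridge between transporter and class I molecule, had values of 0.20 and −0.27 in STZ and −0.66 and −0.70 in sham. The sham arrays were close together and both STZ arrays were above them, by 0.41 ± 0.44 (−0.71 to 1.54, unadjusted p of 0.204 and adjusted p of 0.627 by limma). Without STZ array A this change was 0.022, so it rested on that array. Of the other loading partners, 2 of 6 lay above the median probe, with a median of −0.27 and groups that overlapped for all 6. That median was 0.26 without STZ array B and −0.68 without STZ array A. They were the chaperones Calr (−0.23), Canx (−0.30) and Hspa5 (−0.45), the tapasin relative Tapbpl (0.15), the quality-control enzyme Uggt1 (0.11) and the aminopeptidase Lnpep (−0.51). None passed the test, and their adjusted p were 0.84 to 0.998 (limma).

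B2m, the light chain of every classical class I molecule, had values of 6.08 and 6.54 in STZ and 5.27 and 4.51 in sham, each the mean of 10 spots less those with an outlier flag. Its group means were 6.31 ± 0.33 in STZ and 4.89 ± 0.53 in sham (SD, n = 2 each), without overlap. The change was 1.19 ± 0.50 (−0.084 to 2.47), 2.29-fold, with an unadjusted p of 0.0355 and an adjusted p of 0.416 by limma. A second B2m probe with 1 spot had values of 6.01 and 6.45 in STZ and 5.16 and 4.42 in sham, and a change of 1.21 ± 0.49. The probes of B2m thus had nearly the same change.

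The class I heavy chains, which pair with B2m and hold the peptide, are the RT1 genes of the rat, and 25 of 40 listed genes were tested. Of these, 20 lay above the median probe and 5 below, with a median of 0.50, and 19 had both STZ arrays above both sham arrays, against 26.9% of all probes. That median was 0.17 without sham array B, 0.23 without STZ array A, 0.82 without STZ array B and 0.91 without sham array A. None passed the test, and 3 of 25 had an unadjusted p below 0.05 in the higher direction, against 7.32% of all probes. These were RT1-A2 (1.21 ± 0.50), RT1-A3 (1.1 ± 0.51) and RT1-N2 (1.04 ± 0.46). RT1-A2 had values of 5.28 and 5.78 in STZ and 4.49 and 3.71 in sham, and RT1-A1, another classical gene, 6.22 and 6.86 in STZ and 5.70 and 4.85 in sham. For both genes, as for B2m, sham array B was the lowest of the 4 and STZ array B the highest. RT1-CE5 (1.20), RT1-M3-1 (0.99), RT1-CE11 (0.85), RT1-S3 (0.84), RT1-S2 (0.80), RT1-T24-4 (0.78) and RT1-O1 (0.73) followed, with both STZ arrays above both sham arrays in each. A middle range of 0.18 to 0.55 held RT1-CE16, RT1-CE13, RT1-T18, RT1-CE3, RT1-CE1, RT1-CE15, RT1-CE12, RT1-CE7 and RT1-CE2. Below the median probe were RT1-T24-3 (−0.052), RT1-CE10 (−0.23), RT1-M6-1 (−1.17), RT1-M6-2 (−1.21) and RT1-CE4 (−1.30). Many of these genes are alike in sequence and vary between rats, so a probe can bind transcripts of several. The values of single RT1 genes are therefore uncertain, and the counts above may hold the same signal more than once. Among class I-like molecules outside this set, 4 of 5 lay above the median probe, with a median of 0.58, which was 0.14 without sham array B and 0.15 without STZ array B. They included the lipid presenter Cd1d1 (0.58), the antibody receptor chain Fcgrt (0.60) and the iron regulator Hfe (0.48), while the protein C receptor Procr had −0.93, and none passed.

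**Figure D4:**
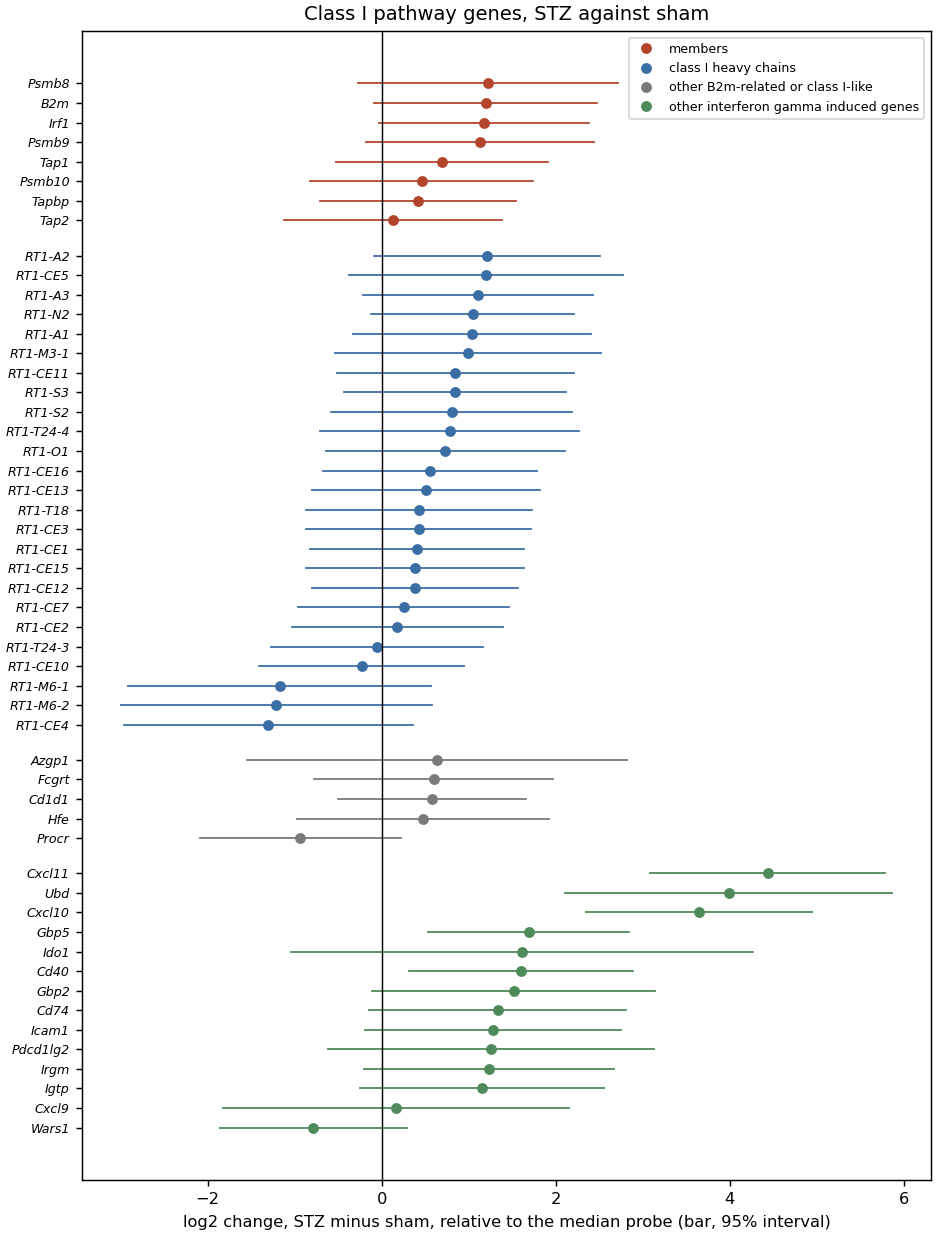
Log2 change, STZ minus sham, relative to the median probe (point) with its 95% interval (bar) for the 8 members, 25 class I heavy chains, 5 class I-like genes and 14 other interferon gamma induced genes. The members lie at 0.13 to 1.22, the heavy chains reach from −1.30 to 1.21, and Cxcl11, Ubd and Cxcl10 lie at 3.64 to 4.43.

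Irf1 had values of 2.65 and 2.43 in STZ and 1.47 and 0.80 in sham, with means of 2.54 ± 0.15 and 1.13 ± 0.48 (SD, n = 2 each). Its groups were the farthest apart of the 8, 0.96 between the lower STZ and the higher sham array. The change was 1.18 ± 0.47 (−0.028 to 2.39), 2.26-fold, with the smallest unadjusted p of the members, 0.0302, and an adjusted p of 0.389 by limma. Of the 17 tested regulators of class I genes other than Irf1, 9 lay above the median probe and 8 below, with a median of 0.024, and none passed. That median was −0.20 without STZ array A and 0.35 without STZ array B. The myeloid and lymphoid factor Irf8 had values of −2.30 and −2.25 in STZ and −4.65 and −4.51 in sham, a change of 2.08 ± 0.42 (adjusted p = 0.171, limma). Nfkb2, a subunit of NF-kappaB, had 1.11 ± 0.49, the class II transactivator Ciita 0.61 ± 0.49 and Irf9, part of the complex that binds the interferon-stimulated response element, 0.54 ± 0.48.

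Upstream, 12 of 13 tested interferon ligands, receptors and kinases lay above the median probe, with a median of 1.03, and none passed. Interferon gamma itself (Ifng) was well above background in all 4 STZ samples and in 0 of 4 sham samples. Its STZ mean was at least 5.08-fold above the sham mean. The STZ arrays behind that mean lay apart, at −5.96 on array A and −4.22 on array B. Ifng passed the filter on dim probes only through the STZ samples and is counted among the 12. Its adjusted p of 0.289 (limma) is for the measured signals and not for the bound. This bound sets the STZ mean against, per sham scan, the higher of the lowest signal well above background and the probe's own signal, before the median is taken off. The receptor kinase Jak2 had values of 2.85 and 2.32 in STZ and 1.58 and 0.48 in sham, a change of 1.33 ± 0.57. Usp18, an interferon-induced brake on the type I receptor, had 1.37 ± 0.60, and Ifnk, a type I interferon of keratinocytes, 1.50 ± 0.68. The 1 gene below the median probe was the phosphatase Ptpn2 (−0.050), named after its value was seen.

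Downstream, 13 of 14 other interferon gamma induced genes lay above the median probe, with a median of 1.42. None passed the test, 9 of 14 had an unadjusted p below 0.05 in the higher direction, against 7.32% of all probes, and 12 had both STZ arrays above both sham arrays, against 26.9%. The chemokine Cxcl11 had values of −0.90 and −0.37 in STZ and −4.85 and −5.74 in sham, a change of 4.43 ± 0.53 (adjusted p = 0.101, limma). Its relative Cxcl10 had 1.49 and 0.83 in STZ and −2.38 and −3.04 in sham, a change of 3.64 ± 0.51. The ubiquitin-like tag Ubd, which delivers proteins to the proteasome, had 0.15 and 1.59 in STZ and −2.72 and −3.97 in sham, a change of 3.99 ± 0.73, and the GTPase Gbp5 had a change of 1.69 ± 0.45. These 4 genes have the smallest p (limma) of the 14. Their changes were larger than those of the 8 members, of which the largest was 1.22, and the difference was not tested. Not all of the 14 were: Igtp had 1.15, and Cxcl9 had 0.16 with groups that overlapped. Wars1 was the gene below the median probe, at −0.78. Igtp, Cxcl9 and Wars1 were named after their values were seen.

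Markers of several leukocyte types lay above the median probe on the same arrays. Of T and NK cell markers, 14 of 14 lay above it and 12 had an unadjusted p below 0.05 in the higher direction, against 7.32% of all probes, with Cd8a at 4.24 ± 0.42, Cd2 at 2.68, Cd3e at 2.76 and Nkg7 at 3.09. Their summed level was 3.44 and 4.25 in STZ and 1.19 and 0.85 in sham, and 12 of the 14 were well above background in all 8 samples. Of macrophage and dendritic cell markers, 10 of 10 lay above the median probe and 9 had an unadjusted p below 0.05 in the higher direction, again against 7.32%, including Fcer1g at 2.96, Tyrobp at 2.91, Cd163 at 2.13 and Cd68 at 2.53. Their summed level was 6.97 and 7.33 in STZ and 5.36 and 4.60 in sham. All 10 were well above background in every sample, and the sum was lowest on sham array B, as were all 8 members. The sum was also lowest there for T and NK cell, neutrophil, keratinocyte, fibroblast, endothelium and melanocyte markers. It was not for hair, adipocyte, skeletal muscle, mast cell, erythroid, and B and plasma cell markers. How many of all probes were lowest on that array was not counted. Of neutrophil markers, 5 of 5 lay above the median probe, led by S100a8 at 5.30 and Csf3r at 4.54, and 4 of 5 were well above background in all 8 samples. Their summed level was 5.86 and 6.04 in STZ and 0.64 and 0.47 in sham. S100a8 alone had 5.78 and 6.01 in STZ and 0.46 and 0.28 in sham, so that sum mostly reflects 1 probe. For Ltf, named after its value was seen, the change was 0.81 and the groups overlapped. Markers of other leukocytes were not all above the median probe. Of mast cell markers, 5 of 6 lay below the median probe, with a median of −0.78 (−0.27 without sham array A), and of 3 B and plasma cell markers Mzb1 had −0.47 while the other 2 were well above background in STZ samples only. The part of these cells in the members' values was not tested, and in whole skin more cells of a type and more RNA per cell cannot be told apart. The median of hair shaft and inner root sheath markers was −6.35, with 13 of 13 below the median probe, and that of erythroid markers −3.85, with 5 of 5 below it. Keratinocyte markers had a median of −0.81 over 5 genes, which was 0.52 without STZ array B, −1.30 without STZ array A and −0.45 without sham array A. Fibroblast markers had a median of 0.79 (0.52 to 1.03 over the alternatives), with 5 of 5 above the median probe. The median of endothelium markers was 0.45 (0.11 to 0.81), with 3 of 4 above it. Adipocyte markers had a median of −0.98 and skeletal muscle markers −0.63, with 5 of 5 below it in each list. For melanocyte markers it was −0.053, with 2 of 4 above. No marker of any of these lists passed the test after adjustment.

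The members did not vary alike within a group. Every member was lower on sham array B than on sham array A, with differences of −0.96 for Psmb8, −0.94 for Psmb9, −0.75 for B2m, −0.68 for Irf1 and −0.51 for Tap1, while the median of all tested probes differed by −0.029. The other 3, Tap2, Psmb10 and Tapbp, differed by −0.23 to −0.041. Between the STZ arrays, Psmb8 and Psmb10 were higher on array B by 0.86 each and B2m by 0.46, against 0.34 for the median probe. Psmb9 (−0.059), Irf1 (−0.22), Tapbp (−0.47), Tap1 (−0.52) and Tap2 (−0.79) were lower on array B than on array A. For Psmb10 and Tap2 the difference between the STZ arrays exceeded the change between the groups, with or without the median probe taken off both. For Tap1 and Tapbp it did so once the median probe was taken off both, the scale on which changes are given here.

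Averaged over the 8 members, the values centred on each gene's mean were 0.51 and 0.52 in STZ and −0.25 and −0.78 in sham. Irf1 (root mean square distance 0.21), Tap1 (0.20) and Psmb9 (0.22) lay nearest this average over the 4 arrays, and Tap2 (0.46) and Psmb8 (0.39) farthest from it. Of all other named genes, the 5 nearest to the average were Rab31 (0.033), Nphs1 (0.042), Mob3a (0.045), B3gnt7 (0.046) and Ifi44 (0.048), with changes of 0.75 to 0.86. These distances rest on 4 arrays and describe a pattern only.

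Among all tested genes with a promoter window, the 359 with the interferon-stimulated response element core had a median change of 0.31, and the 9916 without it −0.13. For the gamma-activated site the medians were −0.089 with it and −0.13 without it, and for the NF-kappaB consensus −0.085 with it and −0.13 without it. Among the members with a core in the window, changes reached from 0.13 (Tap2) to 1.22 (Psmb8), with 0.46 for Psmb10, which has 2 cores. Irf1 and Psmb9, without a core in the window, had 1.18 and 1.13. Bases outside the windows were not searched, and the part of the motif in these changes was not tested. These medians are descriptions over genes, which are not independent replicates.

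Across the settings tried, no member passed at an adjusted p below 0.05 unless the 8 scans were counted as 8 arrays, which takes rescans for replicates. Psmb8, Psmb9, Psmb10, Tap1, Tapbp, B2m and Irf1 stayed above the median probe under every setting, and Tap2 did not. The lowest values of Psmb8 (0.71), Psmb9 (0.63), B2m (0.79) and Irf1 (0.82) all came without sham array B, and their highest without sham array A, at 1.73, 1.63, 1.60 and 1.54.

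**Figure D5:**
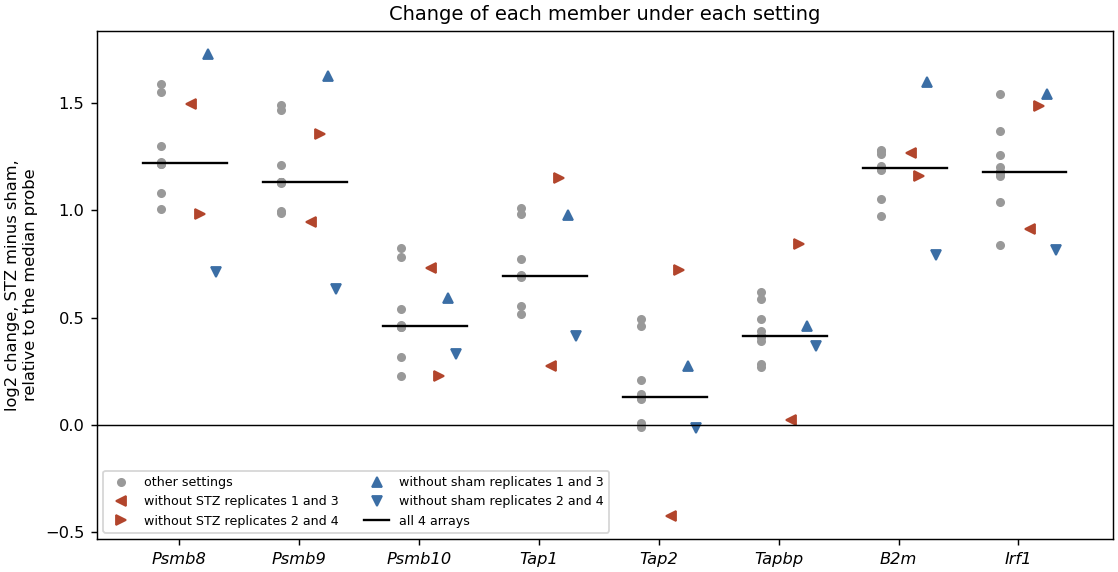
Log2 change of each member, STZ minus sham, relative to the median of the tested probes, under each setting, with a line at the value over all 4 arrays, triangles for fits without 1 array and grey points for other scalings, background corrections, filters and scans. Tap2 alone reaches below 0, and for Psmb8, Psmb9, B2m and Irf1 the fits without a sham array give the extremes.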

How the data were processed

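Cy3-labelled RNA of whole skin was put on Agilent arrays of 1 colour, according to the labels' protocols. Spots were quantified in Agilent Feature Extraction, in version 11.0.1.1 per the file headers and 11.0.0.1 per the submitters' processing notes. The deposited intensity is the processed signal, from which the software had subtracted background without scaling arrays to each other, and the deposited median signal and median local background are uncorrected intensities, per the file headers. Flags for well above background, saturated and outlying spots are 0 or 1 values that the scanner software wrote into the deposited files.

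The file headers give 1 slide with 4 array positions, each scanned in both of 2 sessions, so the 2 scans of a position were averaged to 1 array. From the log2 of each processed signal the array's 75th percentile over 42136 noncontrol spots was subtracted, and spots without an outlier flag were averaged per probe. The 21511 probes tested were well above background in 4 or more of the 8 samples, and 18 were dropped because an array had no usable spot. Groups were compared in limma 3.58.1 (R 4.3.3) with lmFit and eBayes, two-sided, with 2 residual and 3.01 prior degrees of freedom, and p-values were adjusted by Benjamini-Hochberg over all probes tested. Subunit pairs were compared by an exact permutation test. The p-values measure only the spread between these arrays. The fit was tested on simulated data.

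Probes were named by unversioned accession through a RefSeq table of GRCr8, which held 14237 of 15286 coding accessions, and a gene with several probes was taken from the brightest. The headers name build rn4, so GRCr8 coordinates are printed for promoter windows alone. The members and all lists were chosen with earlier results of these data known. Genes named are the members, all tested genes of the close pathway lists, of wider pathway lists and leukocyte lists up to 4 with the smallest p, of other cell type lists some of the brightest, the 5 nearest in pattern, and those said to be chosen after their values were seen. The deviations of the same-numbered arrays from their group means correlated at −0.20 over the tested probes. With so few arrays per group, and probes that are not independent, this value cannot show whether the arrays were paired. The main comparison left them unpaired. Alternatives were other scalings, normexp (offset 50), filters, single scans, 8 scans as arrays, each array left out, a replicate block and, chosen after seeing the data, a crossed block.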

Additional observations from a re-analysis of the deposited data

How the results depend on the processing

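The number of arrays limits the precision, and single arrays weigh heavily. The changes of Psmb8, Psmb9, Psmb10, Tap1, Tapbp, B2m and Irf1 kept their direction under all 16 alternatives, and Tap2 became −0.013 without the filter on dim probes. Leaving out each array in turn gave 0.71 to 1.73 for Psmb8, 0.63 to 1.63 for Psmb9, 0.23 to 0.73 for Psmb10, 0.28 to 1.15 for Tap1, −0.42 to 0.72 for Tap2 (−0.42 without STZ array A, −0.014 without sham array B), 0.022 to 0.84 for Tapbp, 0.79 to 1.60 for B2m and 0.82 to 1.54 for Irf1. A lone array of a group was then assumed to vary like the other group. With the 8 scans as separate arrays, 6 members passed (limma), namely Psmb8 (1.22, adjusted p = 0.0208), Psmb9 (1.13, 0.00877), Tap1 (0.69, 0.0184), Tapbp (0.41, 0.0238), B2m (1.19, 0.00565) and Irf1 (1.18, 0.00276), and 5220 probes did. Probes that passed numbered 127 with array median centring (64 higher, 63 lower), 10 with normexp and the 75th percentile, and 0 to 57 with an array left out (57 without STZ array A). The members' median was 1.15 under quantile normalization, 0.68 with normexp and the 75th percentile, and 0.52 to 1.26 with an array left out. Members with an unadjusted p below 0.05 numbered 3 (all probes higher, 7.32%), but 5 with normexp and quantile normalization (5.31%), 7 with 8 arrays (24.7%), 2 without the filter (6.52%) and 0 with array median centring (6.89%) or the replicate block (7.35%). With the replicate block no probe passed (smallest adjusted p = 0.057), and the members' smallest adjusted p was 0.52. Crossing the arrays, an alternative chosen after seeing the data, called 0 probes (2083 higher and 762 lower at an unadjusted p below 0.05). Medians that changed sign were those of the other 20S core subunits (0.064 under quantile normalization, 0.059 with normexp before it), activators and assembly (0.14 under quantile normalization, 0.16 with normexp before it, 0.021 over probes well above background in every sample), loading partners (0.26 without STZ array B), class I regulators (−0.18 with normexp and the 75th percentile, −0.12 without the filter, −0.20 without STZ array A), B and plasma cells (−0.39 over probes well above background in every sample), melanocytes (0.027 over those probes, 0.10 without sham array A) and keratinocytes (0.52 without STZ array B, −1.30 to 0.52 with an array left out). The causes were not tested. A batch block was not run, since all arrays share 1 slide and each holds both scan sessions.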

Other observations

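Psmb8, Psmb9, Tap1 and Tap2 lie side by side on chromosome 20, among the class II genes, in the RefSeq gene order of GRCr8. Of the 5 named genes on either side of this block, 8 were tested, 7 of them lay above the median probe and 5 had an unadjusted p below 0.05 in the higher direction (limma), against 7.32% of all probes. These were the peptide-exchange genes RT1-DMb (2.19 ± 0.62) and RT1-DMa (2.0 ± 0.64) and the class II chains RT1-Db1 (1.88 ± 0.62), RT1-Ba (1.87 ± 0.77) and RT1-Bb (1.53 ± 0.60), named after their values were seen. The median change of the 8 neighbours was 1.70, against 0.91 for the members, and none passed after adjustment. The chromatin reader Brd2 was the neighbour below the median probe, at −0.81. Around the other members the neighbours had medians of −0.35 (Tapbp, 8 tested), −0.70 (Psmb10 on chromosome 19, 9 tested), 0.19 (B2m on chromosome 3, 4 tested) and −0.30 (Irf1 on chromosome 10, 5 tested).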
